A study of Homo sapiens with 7 samples.

Results

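The loci of 10 genes that build ribosomes (NCL, NPM1, FBL, NOP56, NOP58, NOLC1, GNL3, UBTF, POLR1B and PES1) held 59 of the 64657 MYCN summits mapped in Kelly neuroblastoma cells. A summit is the position of locally highest ChIP-seq signal, and 1 or more summits lie in each called interval. The summits were chosen by position: a summit was counted when it fell in a window drawn around each gene on the build hg19, made of the gene plus about 10 kb on each side. The windows were 26 to 59 kb long and covered 400 kb in all. Positions of the summits therefore chose them, and every count and level below is a description with no test.

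The study compared MYCN occupancy between TAE684-resistant Kelly cells, treated with the ALK inhibitor TAE684 at 1 µM for 48 h, and TAE684-sensitive Kelly cells, treated with the vehicle DMSO for 48 h. Kelly is an established human neuroblastoma line with amplified MYCN and an activating mutation of ALK, and all groups are of this line. The activity of ALK under TAE684 is not given by the labels. By the labels, the resistant cells have 2 ChIP and 2 input samples and the sensitive cells have 2 ChIP samples and 1 input. Input samples hold fragmented chromatin that was not immunoprecipitated and give the background. The lists deposited for the 2 states were identical in 64657 of 64657 rows, and 64657 peak names in the list of the resistant cells carried the name of the sensitive list. All values below are therefore those of the sensitive, DMSO-treated cells, no comparison between states was made, and no value has a replicate error because both ChIP samples share 1 list.

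Ribosomes are assembled in the nucleolus. RNA polymerase I transcribes the ribosomal RNA precursor there, small nucleolar ribonucleoproteins modify it, and assembly factors fold it and join it to ribosomal proteins. MYCN, of the basic helix-loop-helix family, binds DNA together with MAX and prefers the E-box CACGTG. Genes of ribosome biogenesis are textbook targets of the MYC family, and neuroblastomas with MYCN amplification are known for prominent nucleoli.

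Promoter sequences were looked up by symbol in a RefSeq table of build GRCh38.p14, which gives 250 bases before and 50 after a transcription start. It held 12 entries for 8 of the 10 genes, and NOP58 and NOLC1 were not matched. The E-box CACGTG, which reads the same on both strands, was found at FBL, GNL3 and PES1. In each of these the motif began just after a start listed by RefSeq, at base 7 after it in FBL and GNL3 and at base 14 in PES1. The stretches of 30 bases around the motif are shown because these are the places where members of the group share the letters that MYCN prefers. Capitals mark the E-box, and each sequence runs 5′ to 3′ on the strand of the gene.
FBL, chr19:39846356-39846385, minus strand: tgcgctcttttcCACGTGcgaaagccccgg
GNL3, chr3:52686026-52686055, plus strand: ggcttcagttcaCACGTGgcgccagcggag
PES1, chr22:30591880-30591909, minus strand: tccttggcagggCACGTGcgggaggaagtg

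A related motif, CACGCG or its reverse complement CGCGTG, was found in the promoters of NPM1, FBL and UBTF. The promoter entry at the inner of the NPM1 starts held 4 matches counting both orientations, of which the first and second overlap. The other 2, which began 197 and 77 bases before that start, are shown because NPM1 had the strongest summit of the group. Capitals mark the motif.
NPM1, chr5:171387640-171387669, plus strand: agtgtacgagtgCGCGTGctcggtgggagc
NPM1, chr5:171387760-171387789, plus strand: agggcttcggagCACGCGcgcggaggcggg

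POLR1B and NOP56 had the next strongest summits, and no promoter entry of either held one of these motifs. The 250 bases before the outermost RefSeq start of each are given for contrast, in lower case throughout because nothing in them matched.
POLR1B, chr2:112541786-112542035, plus strand: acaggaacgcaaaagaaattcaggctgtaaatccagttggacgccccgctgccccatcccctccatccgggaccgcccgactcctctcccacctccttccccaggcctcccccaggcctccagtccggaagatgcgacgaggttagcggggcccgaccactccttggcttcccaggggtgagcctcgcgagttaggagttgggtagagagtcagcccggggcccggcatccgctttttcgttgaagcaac
NOP56, chr20:2652382-2652631, plus strand: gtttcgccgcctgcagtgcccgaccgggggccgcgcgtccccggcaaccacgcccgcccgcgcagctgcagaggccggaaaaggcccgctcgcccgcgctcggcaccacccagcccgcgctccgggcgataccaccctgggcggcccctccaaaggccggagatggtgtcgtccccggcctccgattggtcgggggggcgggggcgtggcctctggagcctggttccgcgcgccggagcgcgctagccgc

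CACGTG was present in the promoters of 3 of the 8 matched members, against 8.77% of all 27305 genes of the table and 10.9% of its 15843 protein-coding genes. A gene was counted when any of its entries held the motif, so genes with several entries had more chances. The 8 members had 12 entries, and the 27305 genes had 35116. At GNL3 and PES1 the entry with CACGTG was not that of the outermost start. Among 60 other genes of ribosome biogenesis, 50 were matched and 21 of them, or 42%, held CACGTG. These 21 included the RNA methyltransferase gene NOP2, the RNA helicase gene DDX21, the acetyltransferase gene NAT10 and the box H/ACA protein gene GAR1. CACGCG or CGCGTG was held by 3 of the 8 members and by 17 of the 50 other genes (34%), against 13.5% of all genes and 18.1% of protein-coding genes. The promoters of the members had a GC content of 47.7% to 79%, against a median of 58.7% over all entries, and the part of base composition in these counts was not tested. A match is a description of letters and not a binding site, and because the promoter table and the summits are on different builds, no motif was placed under a summit.

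All 10 windows held at least 1 summit, and all 10 held at least 1 within 2 kb of the 5′ end of the gene. For scale, 29.9% of all stretches of 35 kb, the median window length, along chromosomes 1 to 22 and X held a summit. These stretches include sequence without genes, and the windows were chosen with the list known, so nothing is read from the difference. The 29.9% counts a summit anywhere in a stretch, and the share of all genes with a summit within 2 kb of the 5′ end was not computed. At PES1 the summits near that end had fold enrichments of only 4.15 and 3.32. The 5′ end was taken as the point 10 kb inside the window's edge on the side where transcription begins. It is approximate, since a window exceeded the RefSeq length of its gene by 18.2 to 21.5 kb rather than by exactly 20 kb.

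Of the 59 summits, 34 lay within 2 kb of a 5′ end (57.6%), 6 lay further inside a gene and 19 lay beyond a 3′ end. The share of the whole list that lay so close to a 5′ end was not computed. None of the 59 lay in the upstream flanks between 2 and 10 kb from the 5′ end. Those flanks together span 80 kb, whereas the downstream flanks span 100 kb. The summits beyond a 3′ end belonged to 7 windows, several of which also hold a neighbouring gene. By gene order in RefSeq, the neighbours inside the reach of the windows include FGF18 beside NPM1, DYRK1B beside FBL, IDH3B beside NOP56, ATXN7L3 beside UBTF and CHCHD5 beside POLR1B. Which gene such a summit serves cannot be read from its position.

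**Figure D1:**
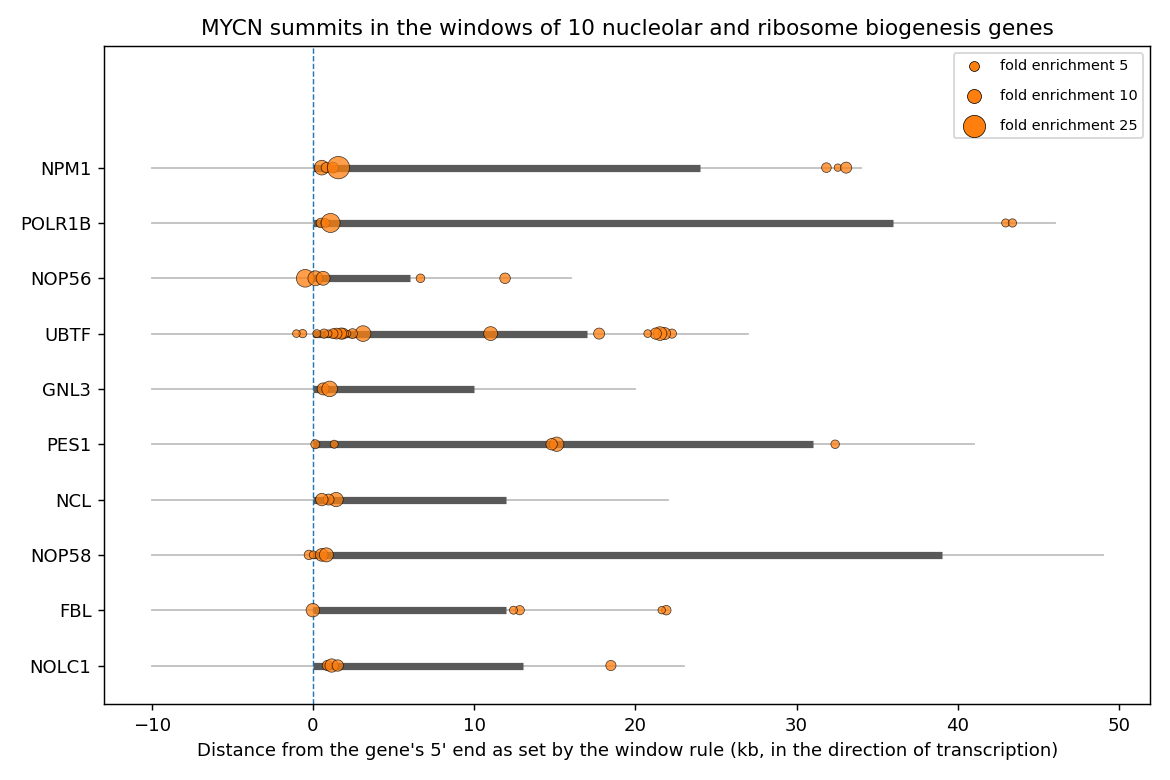
Each line is the window of 1 gene, ordered by its strongest summit, with the thick part marking the gene and the thin parts the 10 kb on each side; the x axis gives the distance in kb from the 5′ end in the direction of transcription. Each circle is 1 MYCN summit with an area proportional to its fold enrichment: 34 of 59 sit within 2 kb of the dashed line at the 5′ end, and none lies more than 2 kb upstream of it.

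The deposited fold enrichment, the ratio of ChIP signal to local background at the summit, had a median of 5.70 over the 59 summits (quartiles 3.87 and 8.68), against 5.35 over the whole list (quartiles 3.90 and 7.54). A fold enrichment of at least 10 was reached by 10 of the 59 summits (16.9%), against 12% of all summits. A fold enrichment of at least 20 was reached by 1 member summit, at NPM1, and by 0.778% of all summits. The number of ChIP fragments over a summit, recovered from the deposited fold and p-value, had a median of 109 in the windows and 63 in the whole list. The local background is the number of input fragments expected at a summit, an estimate that need not be whole. Its median was 11.3 in the windows and 7.56 in the whole list, so both parts of the ratio were larger in the windows. Of the window summits, 25.4% stood alone in their interval, against 56.4% of the whole list. That list is not restricted to promoters, so no trait of these loci is read from the differences.

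Summits beyond the 3′ ends had the lowest medians of the windows. The 34 proximal summits had medians of 6.10 for fold enrichment and 137 for ChIP fragments. The 6 summits further inside a gene, 4 at UBTF and 2 at PES1, had higher medians, 8.29 and 189.5. The UBTF summits at 3.11, 2.46 and 2.15 kb from the 5′ end lay in an interval that also held proximal summits. Those at PES1 lay 14.8 and 15.1 kb in, and the RefSeq promoter entry of PES1 starts 15.1 kb inside the gene on GRCh38.p14. These medians therefore depend on the 2 kb limit and on the 5′ end chosen. The 19 summits beyond a 3′ end had a median fold enrichment of 4.43 and 73 ChIP fragments, and none of them reached a fold enrichment of 10. The strongest of these 19 had a fold enrichment of 9.64 and lay in the UBTF window, on the side of ATXN7L3, which encodes a subunit of the histone deubiquitinase module of SAGA.

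**Figure D2:**
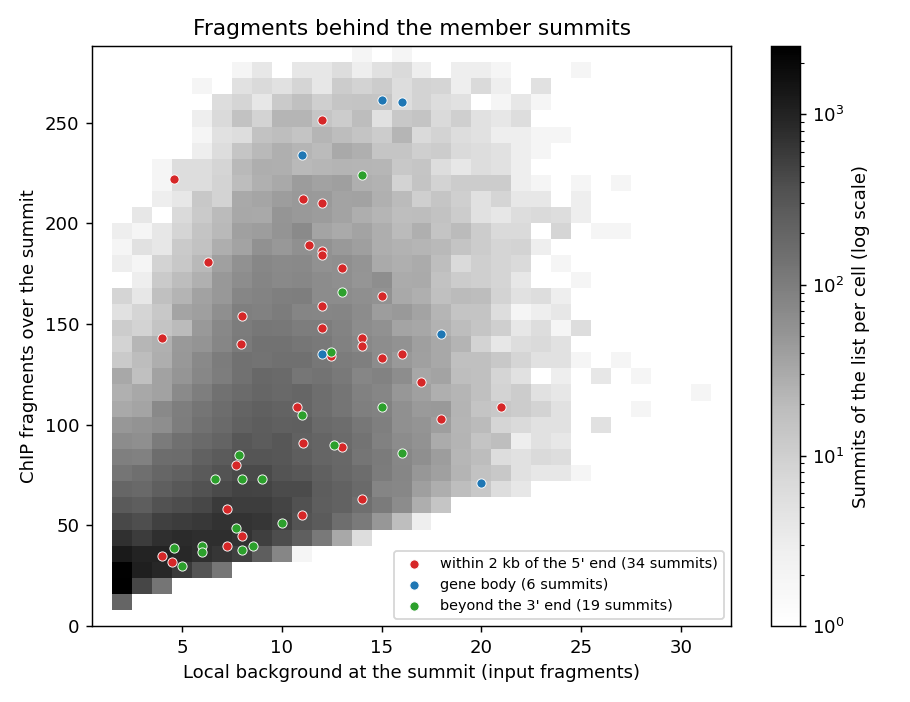
The x axis gives the local background at a summit in input fragments and the y axis the number of ChIP fragments over it; grey cells count the summits of the whole list on a log scale, and points are the 59 member summits by place. The 31 summits of the list with a background above 32 are not drawn. The 19 summits beyond a 3′ end had a median of 73 ChIP fragments, against 137 for those near a 5′ end.

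Some intervals at the members were wide and held several summits, while others were narrow and held 1. The 59 summits lay in 28 intervals with a median width of 558 bases, against 279 bases over all intervals. Of the 28 intervals, 9 were at least 1000 bases wide, against 6.83% of all intervals. Intervals with 3 or more summits numbered 8 of 28, against 7.8% of all, and those with 4 or more numbered 4, against 2.63%. The 13 intervals with a proximal summit had a median width of 1003 bases. The 16 with a summit elsewhere had a median of 342 bases, and the UBTF interval of 3254 bases counts in both. The whole list is not restricted to promoters and the windows were chosen with it known, so nothing is read from these differences.

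UBTF and POLR1B serve transcription by RNA polymerase I. UBTF, the upstream binding factor that organises active ribosomal DNA, had the most summits of the windows, 19 in 7 intervals. One interval on chromosome 17, from 42295693 to 42298946, ran over 3254 bases just inside the estimated 5′ end and held 10 of them. Their fold enrichments ranged between 2.22 and 12.6 and their ChIP fragments between 63 and 234, on a background of 10.8 to 21 input fragments. The strongest of the 10 stood at the end of the interval that lies furthest into the gene, 3.11 kb from the 5′ end. A separate interval in the gene body, with its summit at 42287977, had a fold enrichment of 9.87 and 260 ChIP fragments, the most in this window. It was 92.9% of the 280 fragments that were the highest number at any summit of the list.

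Without the UBTF window the others held 40 summits with a median fold enrichment of 5.85, while the 19 summits of UBTF had a median of 4.95. The median background at UBTF was 13 input fragments. Neither copy number nor chromatin accessibility was measured, and their part in the raised input was not tested.

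POLR1B, which encodes the second-largest subunit of RNA polymerase I, had 1 strong summit and 4 weak ones. The strong summit, on chromosome 2 at 113300094, had a fold enrichment of 18.5 (95% counting interval 15.7 to 21.8) and 143 ChIP fragments on a background of 4. It ranked 685th in the list by fold enrichment, within the top 1.06%, and 7826th by ChIP fragments. The other 2 summits of the same interval had fold enrichments of 4.69 and 3.93. A further pair near the 3′ edge of the window, on the side of CHCHD5, had 3.37 and 3.53.

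FBL, NOP56 and NOP58 encode core proteins of box C/D small nucleolar ribonucleoproteins, which guide 2′-O-methylation of ribosomal RNA. FBL, the methyltransferase fibrillarin, had a single summit at its 5′ end, in an interval of 488 bases on chromosome 19. That summit, at 40337004, lay at the estimated 5′ end, with a fold enrichment of 9.25 (7.98 to 10.7) and 186 ChIP fragments. The other 4 summits in the FBL window lay beyond its 3′ end and had fold enrichments of 2.82 to 4.63. FBL is also the gene whose RefSeq promoter held both motifs searched, CACGTG and CACGCG or its reverse complement.

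NOP56, a scaffold protein of these particles, had 3 summits in an interval of 1494 bases on chromosome 20, from 2632374 to 2633867. Their fold enrichments were 16.0, 11.4 and 9.90 in the direction of transcription, and their ChIP fragments 181, 212 and 189. The first had the highest fold and the second the most fragments, since the background was 6.30 input fragments at the first and 11.1 at the second. A pair of weaker summits further along, on the side of IDH3B, had 3.81 and 5.70.

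NOP58, the partner of NOP56, had 4 summits, all in an interval of 1487 bases on chromosome 2, from 203129665 to 203131151. In the direction of transcription their fold enrichments were 4.61, 3.22, 8.23 and 10.1. Their ChIP fragments were 58, 40, 178 and 140. Both strong summits were the ones further into the gene. No other summit was listed in this window, the longest of the group at 59 kb.

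NCL, NPM1 and NOLC1 encode abundant nucleolar proteins. NPM1, the histone and ribosome chaperone nucleophosmin, carried the strongest summit of the group. It lay on chromosome 5 at 170815581, about 1.58 kb past the estimated 5′ end, with a fold enrichment of 25.5 (22.3 to 29.1) and 222 ChIP fragments on a background of 4.62. It ranked 153rd in the list by fold enrichment, within the top 0.237%. The 3 other summits of that interval, which spans 1458 bases, had fold enrichments of 11.1, 5.15 and 6.01. The first of these had 154 ChIP fragments and lay 0.55 kb from the 5′ end.

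A further 3 summits were listed at the 3′ edge of the NPM1 window, on the side of FGF18, which encodes a fibroblast growth factor. Their fold enrichments were 4.78, 2.79 and 6.28. The middle one had 40 ChIP fragments.

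NCL, nucleolin, which binds ribosomal RNA and its genes, had 3 summits in 1 interval of 1502 bases on chromosome 2, from 232328348 to 232329849. In the direction of transcription their fold enrichments were 7.92, 6.18 and 10.4, and their ChIP fragments 159, 143 and 210. The one furthest into the gene was the strongest by both measures. NOLC1, the phosphoprotein Nopp140 that accompanies small nucleolar ribonucleoproteins, had 3 summits in an interval of 955 bases on chromosome 10. Their fold enrichments were 5.39, 9.13 and 6.64, and their ChIP fragments 133, 184 and 164. A single summit further along, beyond the 3′ end, had 5.31.

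PES1 and GNL3 act on the large ribosomal subunit. GNL3, the GTPase nucleostemin, had the fewest summits, 2, in an interval of 1131 bases on chromosome 3. They had fold enrichments of 7.38 and 12.5 and ChIP fragments of 148 and 251, each on a background of 12. The stronger lay within the top 0.636% of the list by ChIP fragments and the top 5.48% by fold enrichment. RefSeq places the start of PBRM1, a chromatin remodelling gene, directly beside that of GNL3, so the interval covers the starts of both genes or lies close to them.

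The strongest summit by fold enrichment lay more than 2 kb from the estimated 5′ end at UBTF, where it was 3.11 kb in, and at PES1. PES1, pescadillo, a scaffold of large-subunit assembly, had it furthest in. Its strongest summit, on chromosome 22 at 30987882, lay 15.1 kb past the estimated 5′ end, with a fold enrichment of 10.5 (9.29 to 11.9) and 261 ChIP fragments. That was the highest fragment number among the members, within the top 0.300% of the list. At the estimated 5′ end itself, next to the neighbour TCN2, a summit had a fold enrichment of 4.15 and 89 fragments, and another nearby had 3.32 and 45. RefSeq's promoter entry for PES1 likewise does not belong to the outermost start: on GRCh38.p14 its start lies 15.1 kb inside the gene, and it is the entry that holds the E-box shown above. The distances were each measured on their own build and no position was converted.

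Ranked by the strongest summit, the order was NPM1, POLR1B, NOP56, UBTF, GNL3, PES1, NCL, NOP58, FBL and NOLC1, with fold enrichments between 25.5 and 9.13 and a median of 11.5. The counting interval of NPM1 lay above that of POLR1B, while every other pair of neighbours in this order had overlapping intervals. These intervals cover only the counting error of the ChIP, and without molecular identifiers reads may be copies of 1 molecule. A fold enrichment of at least 10 was reached in 8 of the 10 windows, with NOP58 just above it at 10.1 and FBL just under it at 9.25. Among stretches of 35 kb along the genome, 7.48% held such a summit, and nothing is read from this because the loci were chosen with the list known.

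**Figure D3:**
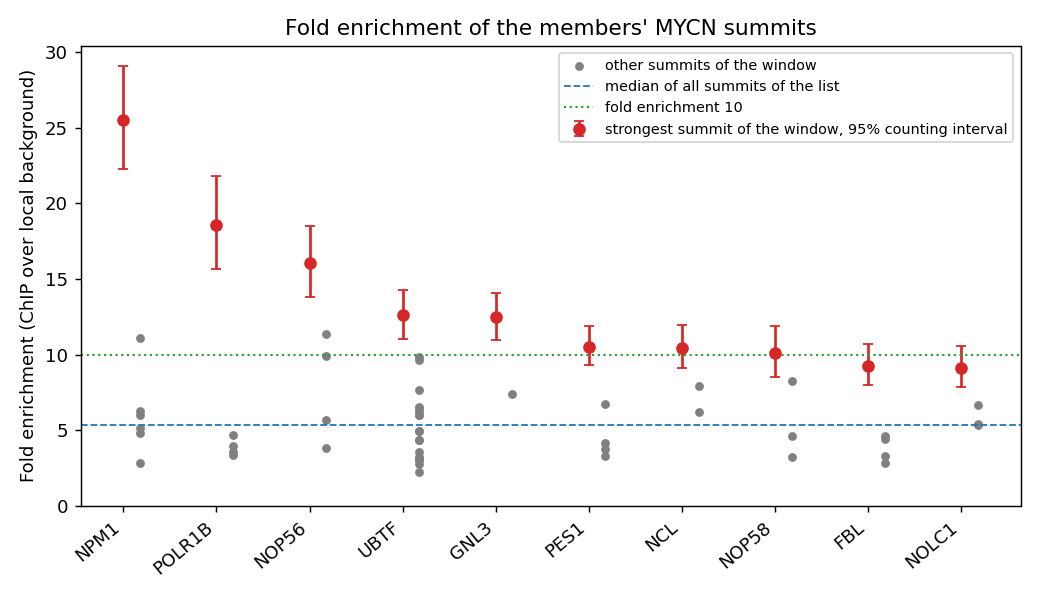
The y axis gives fold enrichment (ChIP over local background) for each gene; red points are the strongest summit of a window with its 95% counting interval, grey points the other summits, and the lines mark a fold enrichment of 10 and the median of the whole list, 5.35. NPM1 stands above the rest at 25.5, and the strongest summits of the last 5 genes lie between 9.13 and 10.5.

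By ChIP fragments the order was another one. The largest number in a window was 261 at PES1, 260 at UBTF, 251 at GNL3, 222 at NPM1, 212 at NOP56, 210 at NCL, 186 at FBL, 184 at NOLC1, 178 at NOP58 and 143 at POLR1B. POLR1B was the second by fold enrichment and the last by fragments, on a background of 4 input fragments, and PES1 was the first by fragments on a background of 15. In 7 of the 10 windows the same summit was the highest by both measures. The exceptions were UBTF, NOP56 and NOP58.

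Each window was denser in summits than its surroundings. The windows held 147.5 summits per Mb, against 50.1 per Mb in the 500 kb on each side of them. All 10 windows exceeded their own surroundings, from 1.21 times at GNL3 to 7.95 times at NPM1. The order of the genes depended on the length of the surroundings: against 100 kb on each side the ratio was 4.44 at GNL3 and 3.18 at NPM1, and all 10 ran from 1.15 at NOLC1 to 7.81 at FBL. Over all windows the ratio was 2.94, and it was 2.34 without UBTF. The surroundings include sequence between genes, so this is no comparison with other promoters, and gene positions on hg19 were not used here. The windows lie on genes and were chosen with the list known, so nothing is read from the difference.

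**Figure D4:**
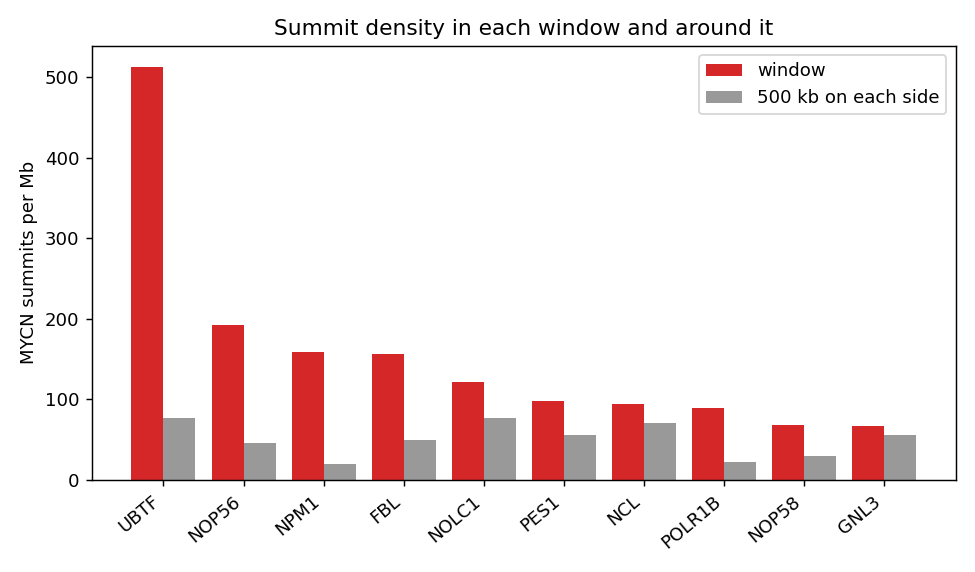
Bars give MYCN summits per Mb in the window of each gene (red) and in the 500 kb on each side (grey). UBTF is highest with 513.5 per Mb in the window and 77 around it, and GNL3 is lowest with 66.7 and 55.

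The windows' edges decided which summits were counted. The included summit nearest to an edge was at FBL, 0.082 kb inside, with a fold enrichment of 4.63. The nearest one left out lay 0.765 kb outside the GNL3 window and had 5.85. A strong summit lay 7.59 kb outside the NOLC1 window on the side of PPRC1, with a fold enrichment of 17.0 and 274 ChIP fragments. Another lay 12.8 kb outside the POLR1B window, with 30.0 and 139.

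Of the 10 genes, 4 are hosts of small nucleolar RNA genes in RefSeq, with 17 such genes nested in them. NOP56 and GNL3 hold 5 each, NOP58 holds 4 and NCL holds 3. In these 4 genes all summits with a fold enrichment of at least 10 lay within 2 kb of the 5′ end, and no summit was listed further inside the gene. The 6 summits inside genes belonged to UBTF and PES1 only, so NPM1, FBL, NOLC1 and POLR1B, which are not hosts, had none either. At NPM1 and POLR1B the summits with a fold enrichment of at least 10 also all lay within 2 kb. No trait of the host genes is therefore read from this.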

How the data were processed

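MYCN ChIP-seq peaks of sensitive Kelly cells were used. Per the submitters' processing notes, the tools were MACS2 2.1.1, deepTools 2.2.4, STAR 2.5.1b, Picard and SAMtools 1.3.1, with hg19. These sources give no settings, no duplicate handling and no account of how both ChIP samples were merged. The deposited columns are a fold enrichment (ratio of ChIP to local background), a −log10 p-value, a −log10 q-value and an integer score per summit. Positions are counted from 1.

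The deposited fold and −log10 p were solved for whole ChIP fragments and the background, using the MACS2 relations with 1 scale, 0.641. In these, ChIP fragments are multiplied by the scale, 1 is added to them and to the background, and the fold is their ratio. All 64657 of 64657 summits matched within 0.0005 in −log10 p, and 24 had another solution within that tolerance, of which the closer was taken. On data simulated with the same relations, at 3 scales and a few set backgrounds, 5388 of 5388 summits were recovered. This checks the solving and cannot show that the relations hold for the deposited list. Fold intervals are exact Poisson (95%). Summits of 1 interval or gene are not independent, so shares of summits carry no interval in the text.

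The members, gene lists and windows were chosen with earlier results of these data known. All 10 genes are named. For each, the text gives the summits of highest fold and of most fragments. Strand came from the RefSeq promoter table, and for NOP58 and NOLC1 from textbook knowledge. Alternatives were thresholds on q and fold, 1 summit per interval, other windows, flanks and motif. Python 3.11.15, numpy 2.4.6, pandas 2.3.3, scipy 1.17.1 and matplotlib 3.10.9 were used.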

Additional observations from a re-analysis of the deposited data

How the results depend on the processing

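No paired analysis was possible because the replicates carry no values of their own, and leaving out a replicate was likewise not possible. The 59 window summits became 33 with a fold enrichment of at least 5, 28 with 1 summit per interval and 35 in windows without the added 10 kb. With a fold enrichment of at least 5, the median fold enrichment was 7.92, the share at 10 or more was 30.3% and the median number of ChIP fragments was 154. These follow from removing low summits. The share within 2 kb of the 5′ end, 57.6%, was 42.9% with 1 summit per interval and 82.9% in windows without the added 10 kb, where the FBL window lost its summit and 9 windows held one. The other 37 of 45 values stayed within 1.5 times for counts or within the nominal 95% interval for shares, medians and the density ratio, which treats summits as independent although they share intervals and genes. Among these values, the share with a fold enrichment of at least 10 was 16.9% in the main setting. It was 28.6% with 1 summit per interval and 25.7% without the added 10 kb. Its nominal interval reached 29.0%, so a value inside it is not an unchanged one. The 37 also include the count with CACGCG or CGCGTG, which is a different measurement from CACGTG. The density ratio without UBTF was chosen after seeing the data. The list holds no summit under 13 ChIP fragments, so weaker binding was not detectable.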

Other observations

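The strongest summit by fold enrichment lay past the middle of its interval, in the direction of transcription, in 8 of the 10 windows. NOP56 and NOLC1 were the exceptions, at 9.91% and 43.4% of the way along. This was noticed after the values were seen and was not tested. The strongest summit lay furthest along at UBTF, NCL and NPM1, at 93.9%, 85.8% and 82.6% of the interval. At FBL and GNL3 it lay barely past the middle, at 54.5% and 53.9%. The same share over all intervals of the list was not computed, so no trait of these loci is read from the count.

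Within the 500 kb on each side of the NPM1 window, 0 of 20 summits had a higher fold enrichment than its strongest one. At NOP56 1 of 46 summits did, and at UBTF 1 of 77. At NOLC1, 12 of 77 did, at NCL 7 of 70 and at FBL 7 of 49. The counts were 2 of 22 at POLR1B, 2 of 29 at NOP58, 3 of 55 at GNL3 and 3 of 56 at PES1. The number of summits around a window differed, so the counts cannot be compared by themselves. The highest fold enrichment around POLR1B was 30.0 and around NOP58 28.8.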
